A study of Homo sapiens with 22 samples.

Results

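Depletion of β-catenin was examined in the human lung carcinoma line H1299 (non-small cell), made BRCA2-deficient, while the kinase GSK3 was inhibited. The comparison took 6 of the 22 libraries of the study, chosen by their labels: 3 with siRNA against β-catenin (siβ-catenin) and 3 with the AllStars control siRNA, numbered 1 to 3 in each group. All 6 cultures held an shRNA against BRCA2 that doxycycline (DOX) switches on, had 2 µg/mL DOX for 3 days and, for the last 24 h, 250 nM LY2090314, a GSK3 inhibitor (GSK3i), with the siRNA transfected in between. The study crossed BRCA2 status, GSK3i and siβ-catenin. The 6 BRCA2-deficient libraries without GSK3i (3 with each siRNA) and the 6 with GSK3i from BRCA2-proficient cells (the same line without DOX, 3 with each siRNA) are used here only where a difference from them was tested. No culture had DOX without the BRCA2 shRNA, so DOX and BRCA2 loss cannot be told apart, and with 1 siRNA sequence against β-catenin, other targets of that sequence and loss of β-catenin cannot be told apart. Whether the line was 1 clone is not given in the sources used here.

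β-catenin, the product of CTNNB1, is both a part of cell junctions, where it links cadherins to α-catenin, and the transcriptional arm of the WNT pathway. Without a WNT signal, a destruction complex of AXIN, APC, CK1 and GSK3 phosphorylates β-catenin and marks it for the proteasome. When GSK3 is blocked, β-catenin accumulates, enters the nucleus and acts with TCF/LEF factors at target genes, several of which (AXIN2, RNF43, ZNRF3) encode negative feedback on the pathway.

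The labels were checked first, as counts normalised by DESeq2 size factors over all 22 libraries. BRCA2 had 71.4 to 225 normalised counts in the 12 BRCA2-deficient libraries and 514 to 1111 in the 10 BRCA2-proficient ones, and CTNNB1 had at most 2217 in libraries with siβ-catenin and at least 5206 in the others. PDCD4 marked GSK3i: in BRCA2-deficient cells it had 108 to 156 with the inhibitor and 1291 to 1920 without. In the library labelled BRCA2-proficient GSK3i with siβ-catenin replicate 2 it had 1998, against 105 and 109 in the other libraries of that group, and YPEL2 (304 against 19.1 and 20.9) and ABTB1 (1303 against 144 and 123) stood apart in the same way. The library labelled BRCA2-proficient siβ-catenin replicate 2, without GSK3i, stood apart the opposite way, with 291 for PDCD4 (1056 in the other library of that group), 35.3 for YPEL2 (126) and 144 for ABTB1 (617). Both go against their labels, and whether they were exchanged was not tested. Neither is among the 6 studied. The first enters 1 comparison, which is given with and without it, and the second enters none, although both are in the size factors and in an alternative model over all groups. Of carcinoma markers, the 6 libraries held KRT18 (5068 to 8382), KRT8 (2306 to 4391) and VIM (12640 to 29030), while KRT19 (1.01 to 4.47) and EPCAM (10.7 to 22.2) were low. Of markers of other cell types, PTPRC of leukocytes, CDH5 of endothelium and LUM of fibroblasts were at 2.26 or below, while ITGAM (73.3 to 112), KDR (56.1 to 128), RGS5 (68.7 to 131), ACTA2 (51.2 to 82.5), DCN (22.9 to 44.3) and PDGFRA (16.1 to 34.3) of the same lists were detected in each of the 6 libraries. The 6 libraries had totals of 22087533 to 29280122 counts.

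siβ-catenin lowered the transcript it targets. CTNNB1 (ENSG00000168036, chromosome 3, 41236232 to 41301587, GRCh37) had 5206, 6046 and 5881 normalised counts in control libraries and 1821, 1645 and 977 with siβ-catenin. The groups did not overlap, and siβ-catenin replicate 3 was the lowest. The log2 fold change was -1.96 (SE 0.24, adjusted p = 1.99e-13). Fold changes here are siβ-catenin over control siRNA under GSK3i on the log2 scale, with the SE and the Benjamini-Hochberg adjusted p of the DESeq2 Wald test unless another fit is named. BRCA2 (ENSG00000139618, chromosome 13, 32889223 to 32974405) had 84.8, 212 and 225 normalised counts in control libraries and 108, 147 and 167 with siβ-catenin. These overlapped, and BRCA2 was not called (-0.32, SE 0.37, adjusted p = 0.765).

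Of 17025 genes tested, 939 were called, at an adjusted p below 0.05 and a log2 fold change beyond 0.5 in size. They were 502 higher with siβ-catenin (2.95% of those tested) and 437 lower (2.57%). The counts of each gene list below are to be read beside these shares. Most changes were modest: the median called increase was 0.86 and the median called decrease -0.72, and 187 increases and 102 decreases were 2-fold or more. Over all genes tested the median was -0.02. Control and siβ-catenin libraries did not overlap in 934 of the 939 genes called and in 4000 of the 17025 tested. A lack of overlap, where stated for single called genes, therefore adds little to the call. Of 1912 lncRNA genes tested 36 were called higher and 11 lower, beside 453 and 407 of 13218 protein-coding genes. With the replicate number as a block (a paired fit), 707 genes were called higher (4.15%) and 634 lower (3.72%), and 902 of the 939 genes were among them. The edgeR quasi-likelihood test called 149 higher (0.875%) and 118 lower (0.693%), of which 261 were among the 939. In the unpaired DESeq2 fit the total was 366 without GSK3i replicate 2, 445 without siβ-catenin replicate 3, 506 without GSK3i replicate 3 and 513 without siβ-catenin replicate 2. Leaving out 1 library also breaks its pair. In the paired fit without replicate 1, 2 or 3 of both groups the totals were 1022, 902 and 966. For many of the genes named below, it is therefore stated whether the call held in the unpaired fit without any one library. ETV4, PHLDA1, HELLS, CDKN2B, TGFBI and PMEPA1, for which this is not repeated below, also held there. For RNF43, TNFRSF19, ZNRF3, SOX9, ID2 and SMAD7 these fits are not given.

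**Figure D1:**
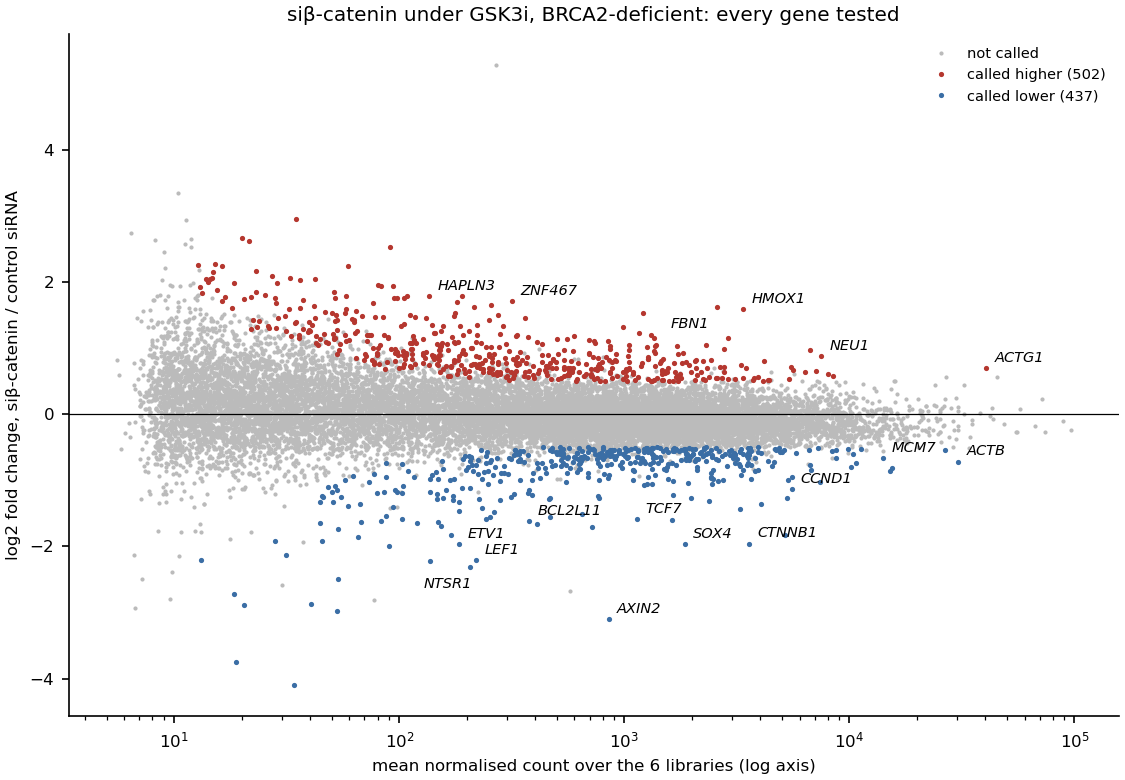
Each point is a gene tested, with its mean normalised count over the 6 libraries on a log axis and its log2 fold change (siβ-catenin over control siRNA under GSK3i) on the vertical axis. The 502 genes called higher and the 437 called lower are coloured. AXIN2, at -3.10, was the largest decrease among named genes.

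Targets of WNT signalling were among the genes that fell most. Of 36 tested WNT target and feedback genes, 14 fell and 1 rose, with a median of -0.36, and edgeR called 11 lower and 0 higher. AXIN2 (ENSG00000168646, chromosome 17, 63524681 to 63557766), a scaffold of the destruction complex and a feedback inhibitor, had 1231, 1747 and 1593 normalised counts in control libraries and 227, 192 and 118 with siβ-catenin. That is an 8.59-fold difference without overlap (-3.10, SE 0.26, adjusted p = 4.33e-28). In BRCA2-deficient cells with control siRNA and no GSK3i, called untreated below, AXIN2 had 62.3 ± 2.42 (mean ± SD, n = 3), so the 179 ± 56.0 (n = 3) reached with siβ-catenin under GSK3i was above the untreated level. Another annotated gene shares 25.3% of the exonic bases of AXIN2, and how such reads were counted makes its level less certain.

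LEF1 and TCF7 encode factors through which β-catenin acts, and both fell. LEF1 (ENSG00000138795, chromosome 4, 108968701 to 109090112) had 353, 357 and 371 normalised counts in control libraries and 86.0, 48.4 and 98.7 with siβ-catenin (-2.21, SE 0.27, adjusted p = 1.27e-13). TCF7 (ENSG00000081059, chromosome 5, 133450372 to 133487556) had 1926, 1642 and 1570 against 677, 515 and 522 (-1.59, SE 0.17, adjusted p = 2.74e-16). Neither gene had overlapping groups. SOX4 (ENSG00000124766, chromosome 6, 21593982 to 21598850), a transcription factor of progenitor cells, had 2717, 3450 and 2695 against 844, 709 and 721 (-1.97, SE 0.17, adjusted p = 1.27e-27), again without overlap, and its untreated level was 1076 ± 85.7. The study names AXIN2, LEF1, SOX4, TCF7 and CCND1 from this assay, as it does CCNE1, CDC6 and CDKN1A, so their direction here is not independent evidence. For MYC its text describes less protein after β-catenin depletion.

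SP5, a zinc finger repressor induced by WNT, had 214, 225 and 234 normalised counts in control libraries and 92.0, 59.5 and 67.0 with siβ-catenin (-1.63, SE 0.23, adjusted p = 1.29e-09), without overlap and with an untreated level of 127 ± 23.6. The phosphodiesterase gene PDE4B (-1.70), the pseudokinase gene TRIB2 (-1.67), the receptor gene TNFRSF19 (-1.33), RNF43 (-1.24), whose product removes Frizzled receptors, the ligand gene BMP4 (-1.15) and the cyclin D1 gene CCND1 (-1.13) fell by more than 2-fold. CCND1 had 7753, 6703 and 8320 against 4154, 3430 and 2883 (-1.13, SE 0.18, adjusted p = 1.6e-07), and the growth regulator MYC 4434, 3489 and 4244 against 2568, 2192 and 2488 (-0.75, SE 0.16, adjusted p = 0.000116), both without overlap. ZNRF3 (-0.69), a paralog of RNF43, and the progenitor factor SOX9 (-0.68) fell by less. AXIN2, LEF1, SOX4, TCF7, SP5, PDE4B, TRIB2, BMP4, CCND1 and MYC were called without any one library and by edgeR. The gene that rose was ID2 (0.58, SE 0.18, adjusted p = 0.0205), a repressor of bHLH factors that also answers to BMP. Among targets known from other tissues, DKK1 (0.05), JUN (-0.07), FOSL1 (0.02) and CD44 (0.09) were not called.

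The promoter of SP5 is shown because, of the 23 tested WNT target genes found in the RefSeq promoter table (9 of the 14 that fell), it alone holds an exact TCF/LEF motif. The letters searched were CTTTGAT on both strands, from 250 bases before the gene start to 50 after it, and 2.62% of the 35116 promoters in the table hold them. The 250 bases before the start, chr2:171571597-171571846 of GRCh37, + strand, are printed 5′ to 3′ with the motif in capitals.
SP5: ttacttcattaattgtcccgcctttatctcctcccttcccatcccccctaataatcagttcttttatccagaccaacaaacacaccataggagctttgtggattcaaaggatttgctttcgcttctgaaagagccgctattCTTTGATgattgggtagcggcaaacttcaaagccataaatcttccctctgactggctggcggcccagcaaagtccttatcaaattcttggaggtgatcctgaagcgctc
The motif starts at position -109 from the gene start. A match describes the letters only, and binding was not measured.

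**Figure D2:**
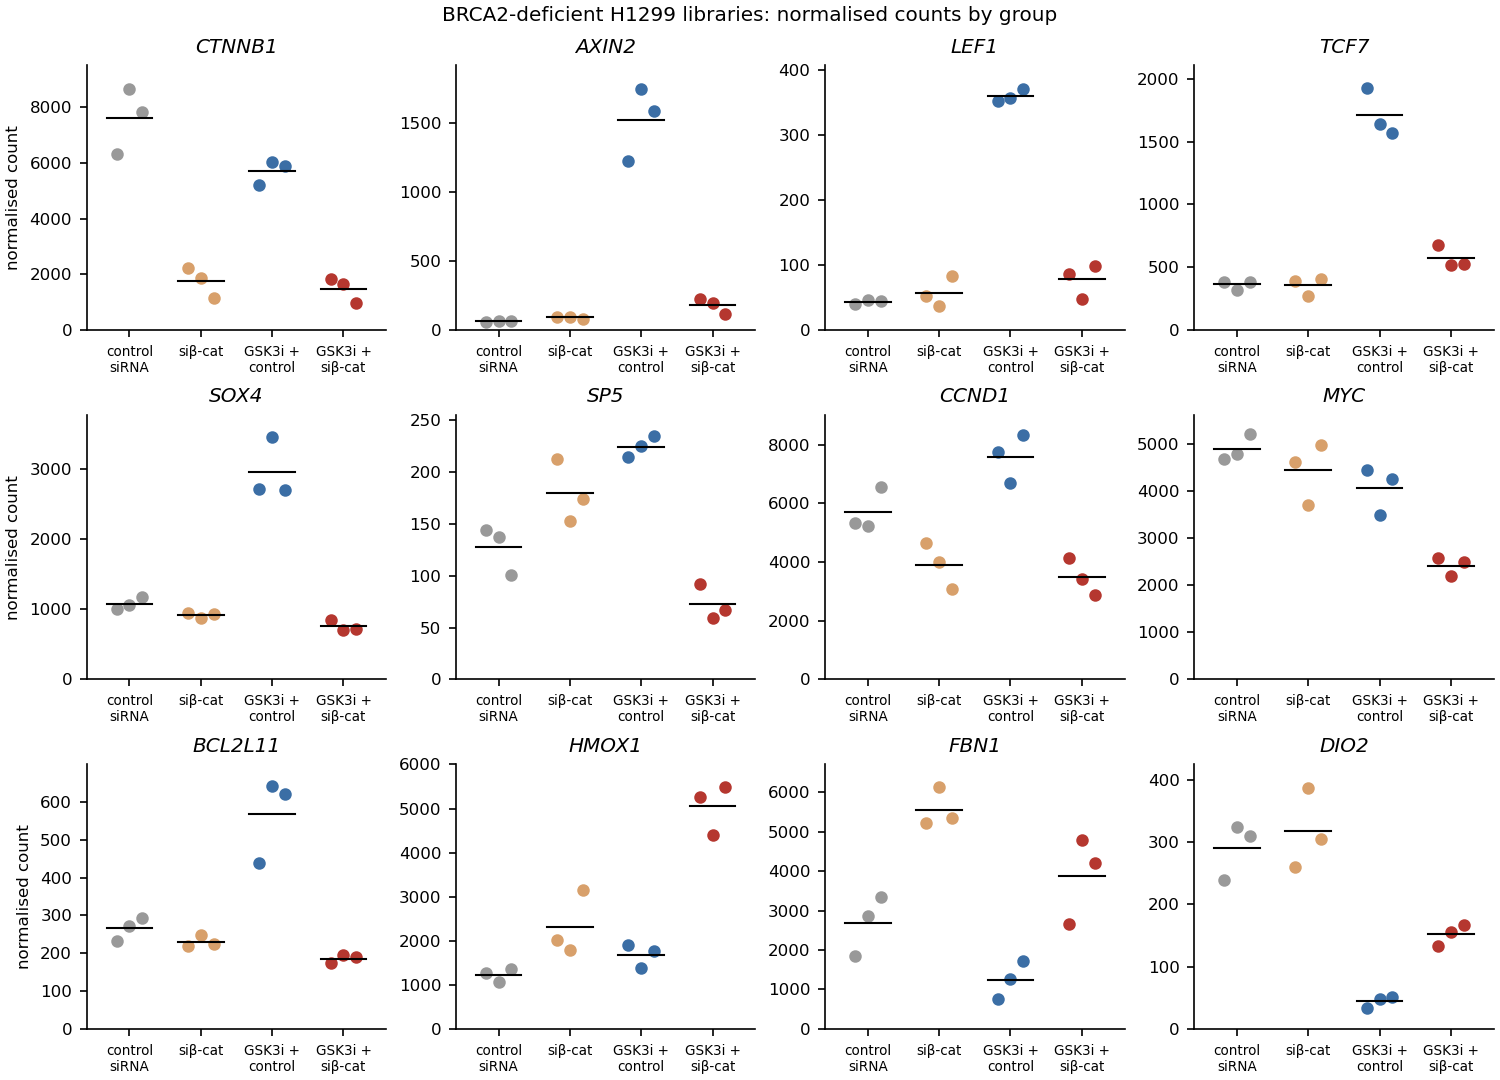
Normalised counts (linear axes from 0) of 12 genes in the BRCA2-deficient libraries, by group: control siRNA and siβ-catenin, each without and with GSK3i. Points are libraries and bars are group means. AXIN2 rises from 62.3 in untreated cells to between 1231 and 1747 with GSK3i and falls to 118 to 227 when siβ-catenin is added.

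Few genes for other parts of WNT signal transduction were called. Of 44 tested genes for WNT receptors, the destruction complex and TCF partners, 2 fell and 0 rose (edgeR called 0 and 0), with a median of 0.04. Of all genes tested 2.57% fell and 2.95% rose. With the replicate block 4 of the 44 were called lower and 0 higher. The 2 that fell were BCL9 (-0.69, SE 0.18, adjusted p = 0.00553), an adaptor of β-catenin in transcription, and AMER1 (-0.62, SE 0.20, adjusted p = 0.0397), which binds APC at the membrane. Both calls ended without GSK3i replicate 2 (adjusted p 0.12 to 0.284), GSK3i replicate 3 (0.0916 to 0.297) or siβ-catenin replicate 3 (0.0658 to 0.198). The destruction complex genes APC (0.05), AXIN1 (-0.27) and GSK3B (0.13), the co-receptor gene LRP6 (0.14) and TCF7L2 (-0.39) were not called. Among 17 catenin and cadherin genes CTNNB1 itself fell and the plakophilin gene PKP3 rose (0.59, SE 0.18, adjusted p = 0.0221). The PKP3 call ended without GSK3i replicate 2 (adjusted p 0.289), GSK3i replicate 3 (0.201), siβ-catenin replicate 1 (0.0901) or siβ-catenin replicate 2 (0.235). JUP, the gene of γ-catenin, a close relative of β-catenin, had 0.49 and was not called.

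The siβ-catenin effect was then compared with and without GSK3i in BRCA2-deficient cells by testing the difference of the effects, over 3 libraries in each of 4 groups. Of 18117 genes tested, 27 had a higher effect under GSK3i (0.149%) and 61 a lower one (0.337%). With the replicate block the counts were 117 and 218, and edgeR called 0 and 11 (unadjusted p below 0.05 in 999 genes). Of 37 WNT target genes tested here, 8 were called lower and 0 higher.

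AXIN2 had an effect of -3.10 under GSK3i and 0.55 (SE 0.25) without it, a difference of -3.65 (SE 0.34, adjusted p = 2.51e-22). For LEF1 the effects were -2.21 and 0.41, with a difference of -2.62 (SE 0.43, adjusted p = 1.89e-06). For SP5 they were -1.63 and 0.51 (difference -2.13, SE 0.31, adjusted p = 2.04e-08). SOX4 had -1.97 and -0.23 (difference -1.74, SE 0.20, adjusted p = 7.93e-15) and TCF7 -1.59 and -0.02 (difference -1.57, SE 0.27, adjusted p = 6.37e-06). In each of these genes the effect was lower under GSK3i, and of the effects without GSK3i those of AXIN2, LEF1 and SP5 were above 0. These 5 differences held without any one of the 12 libraries and in edgeR. CTNNB1 itself had -1.96 and -2.12, a difference of 0.17 (SE 0.37, adjusted p = 1) that was not called. CCND1 (difference -0.59, SE 0.27, adjusted p = 0.671) and MYC (difference -0.62, SE 0.21, adjusted p = 0.225) were not called either, which does not show that their effects were equal.

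**Figure D3:**
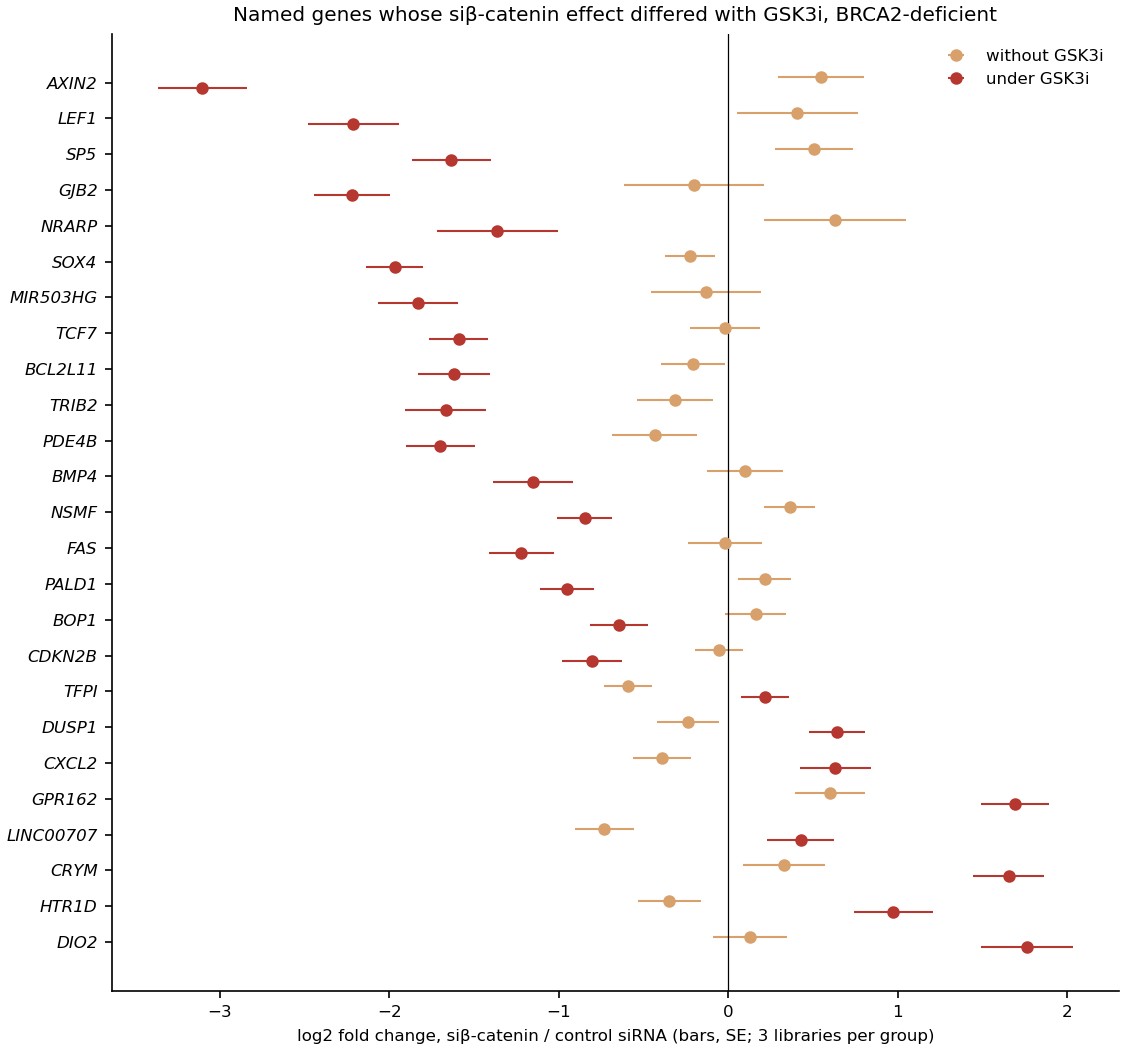
The siβ-catenin effect (log2 fold change with SE bars, 3 libraries per group) under GSK3i and without it, for the 25 named genes whose difference was called in BRCA2-deficient cells. AXIN2 shows the widest gap, from 0.55 without GSK3i to -3.10 under it, and among genes that rose DIO2 goes from 0.13 to 1.76.

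Genes outside the WNT list also differed by GSK3i. GJB2, the gap junction gene of connexin 26, had 249, 219 and 207 normalised counts in control libraries and 51.0, 44.3 and 49.7 with siβ-catenin (-2.22, SE 0.22, adjusted p = 2.09e-19), without overlap, against 32.9 ± 10.2 in untreated cells. Its difference was -2.02 (SE 0.39, adjusted p = 0.000143). The lncRNA gene MIR503HG (213, 313 and 264 against 76.0, 78.6 and 69.3) had a difference of -1.69 (SE 0.40, adjusted p = 0.00573), which ended without GSK3i replicate 2 or without siβ-catenin replicate 3 of the group without GSK3i (adjusted p 0.0642 to 0.0783). PALD1 (809, 971 and 937 against 471, 512 and 429) had -1.17 (SE 0.18, adjusted p = 9.93e-08) and NSMF (8125, 10140 and 7677 against 5098, 4952 and 4432), the gene of a synapse-to-nucleus messenger, -1.21 (SE 0.20, adjusted p = 5.36e-06). All of these had groups that did not overlap.

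In the other direction, DIO2, the gene of the deiodinase that activates thyroid hormone, had 33.2, 47.8 and 51.9 normalised counts in control libraries and 133, 156 and 166 with siβ-catenin (1.76, SE 0.27, adjusted p = 2.6e-08; difference 1.64, SE 0.32, adjusted p = 0.000127). The groups did not overlap, and both lay below the untreated 291 ± 45.2. The serotonin receptor gene HTR1D had 132, 98.2 and 156 against 261, 229.7 and 269 (difference 1.32, SE 0.27, adjusted p = 0.000645), also below its untreated 461 ± 39.9. CRYM, the gene of a protein that binds thyroid hormone, had 143, 125 and 101 against 358, 361 and 441 (difference 1.32, SE 0.30, adjusted p = 0.00347), and there the siβ-catenin libraries lay above the untreated 122 ± 9.80. Of the 25 named genes whose difference was called, 14 kept it without any one of the 12 libraries, 7 were called by edgeR and 25 with the replicate block. Without GSK3i replicate 2, 14 kept it.

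Other genes also had large decreases under GSK3i. NTSR1, the neurotensin receptor gene, had 472, 278 and 273 normalised counts in control libraries and 112, 58.4 and 36.9 with siβ-catenin (-2.31, SE 0.39, adjusted p = 6.08e-07). ZFYVE28 had 1195, 1047 and 1032 against 457, 298 and 258 (-1.70, SE 0.23, adjusted p = 1.41e-10). Groups without overlap were a condition for naming the 12 genes with the largest decreases, these 2 included. All 12 were called without any one library and by edgeR.

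Of 20 tested MAPK feedback genes and ETS targets, 6 fell and 0 rose, with a median of -0.21 (edgeR called 4 and 0). ETV1, an ETS factor gene, had 199, 365 and 315 normalised counts in control libraries and 80.03, 74.6 and 72.3 with siβ-catenin (-1.97, SE 0.27, adjusted p = 4.5e-10), without overlap and with both groups below the untreated 841 ± 140.2. The others were the ETS factor gene ETV4 (-1.26), CCND1, PHLDA1 (-0.95), the ERK phosphatase gene DUSP6 (-0.90) and the cytokine gene LIF (-0.60). DUSP6 and LIF lost the call without GSK3i replicate 2 (adjusted p 0.183 to 0.295), GSK3i replicate 3 (0.201 to 0.273), siβ-catenin replicate 2 (0.0695 to 0.165) or siβ-catenin replicate 3 (0.0952 to 0.199), and DUSP6 also without siβ-catenin replicate 1 (0.134).

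Of 28 apoptosis regulators 4 fell and 1 rose (edgeR called 3 and 0). BCL2L11, the gene of the pro-apoptotic protein BIM, had 438, 643 and 620.5 normalised counts in control libraries and 173, 194 and 190.5 with siβ-catenin (-1.62, SE 0.21, adjusted p = 1.94e-11). Its effect without GSK3i was -0.21, a difference of -1.41 (SE 0.25, adjusted p = 1.71e-05). The death receptor gene FAS had 532, 624 and 471 against 262, 238 and 203 (-1.22, SE 0.19, adjusted p = 6.25e-08). Neither gene had overlapping groups. PMAIP1 (-0.73), the gene of NOXA, and BIRC3 (-0.74), an inhibitor of apoptosis, fell, and the BH3-only gene HRK rose (0.83). BCL2L11, FAS and PMAIP1 were called without any one library, while BIRC3 and HRK were lost without GSK3i replicate 2 (adjusted p 0.0928 to 0.113), GSK3i replicate 3 (0.136 to 0.153) or siβ-catenin replicate 2 (0.144 to 0.151), and BIRC3 also without siβ-catenin replicate 1 (0.0513).

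Of 43 tested genes for extracellular matrix and its remodelling, 8 rose, 0 fell and 35 were not called, with a median of 0.23 (edgeR called 5 and 0). HAPLN3, whose product links hyaluronan to proteoglycans, had 67.6, 51.3 and 63.5 normalised counts in control libraries and 225, 191 and 215 with siβ-catenin (1.79, SE 0.23, adjusted p = 2.57e-12). COL1A1, a type I collagen gene, had 80.2, 78.7 and 95.7 against 235, 292 and 356 (1.79, SE 0.24, adjusted p = 7.94e-11), and the fibrillin gene FBN1 765, 1272 and 1712 against 2659, 4786 and 4206 (1.63, SE 0.32, adjusted p = 2.87e-05). The groups of each gene stood apart. The laminin and collagen genes LAMB2 (0.74), COL7A1 (0.69) and COL6A1 (0.65) rose by less. LAMB2 and COL7A1 lost the call without GSK3i replicate 2 (adjusted p 0.0701 to 0.133) or siβ-catenin replicate 2 (0.0995 to 0.114), and COL7A1 also without siβ-catenin replicate 3 (0.136), while HAPLN3, COL1A1, FBN1 and COL6A1 held without any one library. FN1 (-0.37), VCAN (-0.40), LAMB1 (-0.50) and MMP2 (-0.52) lay below 0 and were not called.

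Sums of some markers of other cell types moved with this group. Those of the 10 leukocyte markers overlapped, at 97.3 to 142 normalised counts in control libraries and 116 to 145 with siβ-catenin. Of the 4 fibroblast and mural markers tested, 3 estimates lay above 0 and 1 below (-0.49). The 9 fibroblast and mural markers summed to 191 to 225 normalised counts in control libraries and 254 to 281 with siβ-catenin, and the 7 endothelial markers to 80.2 to 99.0 and 111 to 152. Of the endothelial list KDR (56.1 to 128 over the 6 libraries) alone passed the filter and was not called (0.70). CDH5 and EMCN of that list had a median of 0. Of the fibroblast and mural list LUM and THY1 had a median of 0, COL1A2 and COL3A1 were at 5.002 or below, and RGS5 was called higher (0.70), a call lost without each library in turn. Their part in the matrix result was not tested. COL1A1 and FBN1 had effects of 1.5021 (SE 0.28) and 1.0515 (SE 0.22) without GSK3i, and the differences, 0.29 (SE 0.39, adjusted p = 1) and 0.58 (SE 0.41, adjusted p = 1), were not called. Of 13 EMT regulators DESeq2 and edgeR called 0, and VIM (-0.49, SE 0.23, adjusted p = 0.235) was called lower with the replicate block (-0.50, adjusted p = 9.94e-09) and without siβ-catenin replicate 1 (-0.70, adjusted p = 0.0293).

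HMOX1, the heme oxygenase gene of the oxidative stress response, had 1897, 1375 and 1758 normalised counts in control libraries and 5255, 4390 and 5497 with siβ-catenin (1.59, SE 0.18, adjusted p = 2.35e-15), without overlap, against 1230 ± 153 in untreated cells. The lncRNA gene LINC02154 had 125, 119 and 70.6 against 327, 369.8 and 273 (1.62, SE 0.26, adjusted p = 1.48e-07), with an untreated level of 8.54 ± 3.00. The zinc finger gene ZNF467 had 146, 147 and 148 against 431, 563 and 459 (1.72, SE 0.19, adjusted p = 2.12e-16), and 703 ± 245 in untreated cells. Neither of these overlapped. PTP4A3 (1.79), TMEM40 (1.76), KIRREL2 (1.75), GPR162 (1.69) and CRYM (1.65) completed the 12 largest increases, and all 12 were called without any one library and by edgeR.

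Among the most abundant genes called, the cytoplasmic actins went opposite ways. ACTB had 43790, 34030 and 35430 normalised counts in control libraries and 28250, 22410 and 18490 with siβ-catenin (-0.72, SE 0.20, adjusted p = 0.00812), and ACTG1 34940, 26680 and 30880 against 53670, 46230 and 50610 (0.70, SE 0.15, adjusted p = 0.000353). Neither pair of groups overlapped. The coding sequences of these genes are near-identical, so both are uncertain, neither was called by edgeR, and ACTB was lost without siβ-catenin replicate 2 (adjusted p of it and HSPD1 0.0859 to 0.169) or replicate 3 (of these and SYNCRIP 0.0357 to 0.202). The adhesion gene NECTIN2 (0.58), the mannose-6-phosphate receptor gene M6PR (0.61) and the peptidase gene MME (0.97) rose, and NECTIN2 and M6PR were lost without GSK3i replicate 2 (adjusted p 0.0578 to 0.0928). Both were also lost in edgeR (adjusted p of these and ACTG1 0.0513 to 0.0639), and NECTIN2 without GSK3i replicate 3 (0.0543). The scaffold gene AKAP12 (-0.81) and the chromatin gene HMGA2 (-0.86) fell and held without any one library, although edgeR lost AKAP12. SYNCRIP (-0.52) fell but was lost in edgeR and without GSK3i replicate 1 or 2 or siβ-catenin replicate 3.

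**Figure D4:**
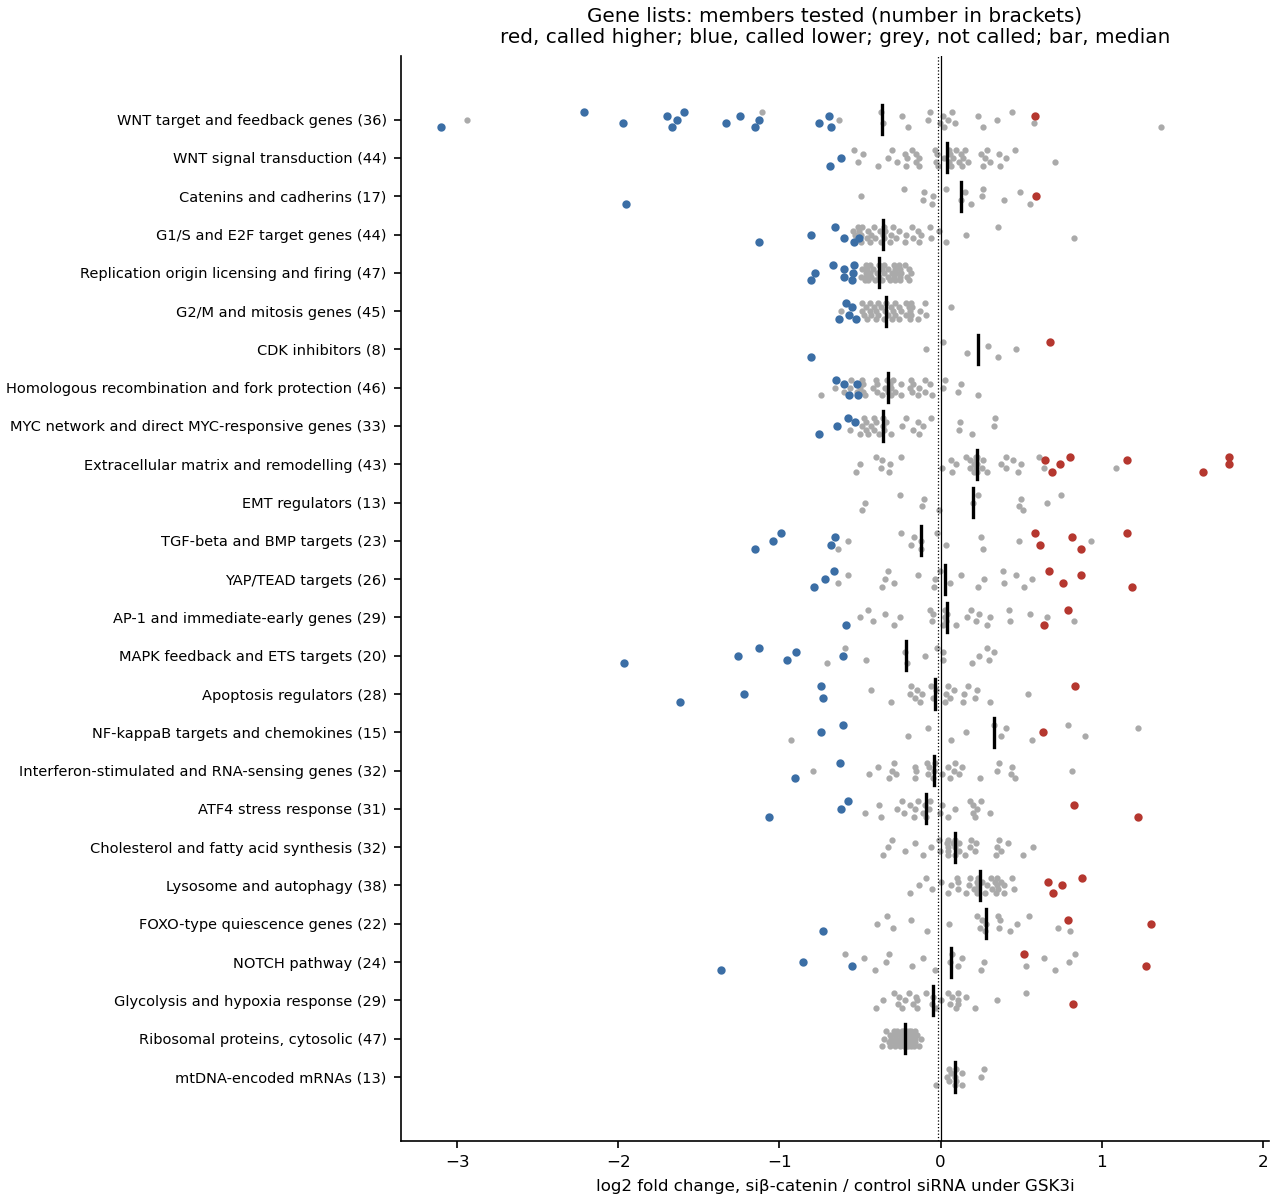
Log2 fold changes (siβ-catenin over control siRNA under GSK3i) of the tested members of the gene lists. Coloured points were called and grey points were not, black bars are list medians and the dotted line is the median of all genes tested (-0.02). All 47 replication genes and all 47 ribosomal protein genes lie below 0, beside 52.5% of all genes tested. Matrix genes lean to the right with a median of 0.23.

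Genes of DNA replication leaned down together and by little. Of 47 tested genes for origin licensing and firing, 8 fell and 0 rose (edgeR called 2 and 0), the median was -0.38, and all 47 estimates lay below 0, from -0.81 to -0.19, where 52.5% of all genes tested did. With the replicate block 8 were called lower and 0 higher. By an adjusted p below 0.05 alone, the block had 38 lower and 0 higher, beside 2267 and 1407 of all 17025 genes tested. GINS1 (ENSG00000101003, chromosome 20, 25371644 to 25433336), a gene of the replicative helicase, had 1237, 1238 and 1252 normalised counts in control libraries and 803, 697 and 640.2 with siβ-catenin (-0.81, SE 0.15, adjusted p = 5.14e-06). PRIM1, the primase gene, had 695, 681 and 605 against 384, 379 and 396 (-0.78, SE 0.14, adjusted p = 9.66e-06). Neither gene had overlapping groups. The helicase subunit gene MCM7 (-0.67, SE 0.15, adjusted p = 0.000442) also fell, and GINS1, PRIM1 and MCM7 were called without any one library. edgeR called GINS1 and PRIM1 and lost MCM7. The origin binding gene ORC1 (-0.60), WDHD1 (-0.60), the initiation factor gene MCM10 (-0.55), POLA2 (-0.54) of primase-polymerase α and the ligase gene LIG1 (-0.54) fell too, and lost the call without GSK3i replicate 2 (adjusted p 0.13 to 0.298). Some of the 5 were also lost without GSK3i replicate 3 (0.0538 to 0.253), siβ-catenin replicate 3 (0.058 to 0.286), siβ-catenin replicate 2 (0.111 to 0.217), siβ-catenin replicate 1 (0.12 to 0.152) or GSK3i replicate 1 (0.133). In bulk RNA, fewer cells in S phase and less of these transcripts per cell cannot be told apart.

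Of 44 G1/S and E2F target genes 6 fell and 0 rose (edgeR called 2 and 0), with a median of -0.36. By an adjusted p below 0.05 alone, the replicate block had 31 lower and 0 higher. Beside CCND1 and GINS1 the 6 called were the chromatin remodeller gene HELLS (-0.66), the thymidylate synthase gene TYMS (-0.60), the ribonucleotide reductase gene RRM2 (-0.54) and the cyclin A2 gene CCNA2 (-0.51). HELLS, TYMS, RRM2 and CCNA2 were lost in edgeR (adjusted p 0.0535 to 0.119). RRM2, TYMS and CCNA2 lost the call without GSK3i replicate 2 (adjusted p 0.0778 to 0.31) or siβ-catenin replicate 2 (0.0667 to 0.235), TYMS also without GSK3i replicate 1 (0.0509) or siβ-catenin replicate 3 (0.116), and CCNA2 without GSK3i replicate 3 (0.183) or siβ-catenin replicate 1 (0.128). TYMS shares 47.9% of its exonic bases with ENOSF1 on the opposite strand. The cyclin E1 gene CCNE1 had 806, 534 and 758 normalised counts in control libraries and 542, 462 and 439.8 with siβ-catenin, in overlapping ranges, and was not called (-0.54, SE 0.21, adjusted p = 0.0938), but was with the replicate block (-0.53, adjusted p = 0.00117) and without GSK3i replicate 2 (-0.71, adjusted p = 0.0276). CDC6 (-0.44, SE 0.14, adjusted p = 0.0272) and MCM4 (-0.46, SE 0.12, adjusted p = 0.00548), which load and form the helicase, passed the p threshold and not the size criterion, and MCM4 was called without siβ-catenin replicate 3 (-0.51, adjusted p = 0.029). Of 45 G2/M and mitosis genes 5 fell and 0 rose, namely UBE2C (-0.63), NUF2 (-0.59), KIF11 (-0.57), TTK (-0.55) and CDC20 (-0.52), and all 5 were lost without GSK3i replicate 2 (adjusted p 0.0774 to 0.281) or siβ-catenin replicate 2 (0.0758 to 0.15) and in edgeR (0.0785 to 0.109). Some of these were also lost without GSK3i replicate 3 (0.0572 to 0.2), siβ-catenin replicate 3 (0.0524 to 0.119), siβ-catenin replicate 1 (0.116) or GSK3i replicate 1 (0.0355 to 0.0584, the lower through its size). Of the 45 mitosis genes, the replicate block had 29 lower and 0 higher by an adjusted p below 0.05 alone.

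Without GSK3i the replication list had a median siβ-catenin effect of -0.40, beside -0.38 under it. GINS1 had -0.90 (SE 0.18) without GSK3i (difference 0.10, SE 0.21, adjusted p = 1) and PRIM1 -0.86 (SE 0.19) (difference 0.09, SE 0.21, adjusted p = 1). DESeq2 called 0 of the 47 differences, where it called 0.149% of all genes tested higher and 0.337% lower. With so few calls over all genes, 0 in this list does not show that the effects were equal. For the WNT target list the medians were 0.04 without GSK3i and -0.36 under it.

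E2F motifs in promoters of these genes are shown because the list rule did not use sequence. The letters searched were TTTCCCGC and GCGCCAAA on both strands of the same 300-base window. Either was found in 25 of 70 tested G1/S and replication genes with a promoter in the table (35.7%), in 5 of 12 that fell (41.7%), and in 2.27% of the 35116 promoters. The G1/S list was itself drawn from known E2F targets, so this is a description. The sites are printed 5′ to 3′ on the strand of the gene, 30 bases each, with the motif or its reverse complement in capitals.
MCM7, chr7:99699189-99699218, - strand, at -187: cagctcggaccGCGGGAAAcccggcgcctg
HELLS, chr10:96305458-96305487, + strand, at -76: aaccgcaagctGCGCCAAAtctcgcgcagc
HELLS, chr10:96305526-96305555, + strand, at -8: gatgacaggatTTTCCCGCgaaggagaagc
LIG1, chr19:48673697-48673726, - strand, at -114: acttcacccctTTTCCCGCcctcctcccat
TYMS, chr18:657603-657632, + strand, at -39: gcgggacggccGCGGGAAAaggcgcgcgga
GINS1, chr20:25388303-25388332, + strand, at 6: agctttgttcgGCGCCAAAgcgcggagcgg
Coordinates are GRCh37 and positions count from the RefSeq gene start.

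CDK inhibitors moved both ways. Of 8 tested, CDKN2D (0.68, SE 0.18, adjusted p = 0.00621) rose and CDKN2B (-0.80, SE 0.18, adjusted p = 0.000352) fell, and edgeR called 0 of them (adjusted p 0.0502 to 0.0676). CDKN2D was lost without GSK3i replicate 2 (0.165), GSK3i replicate 3 (0.0703), siβ-catenin replicate 1 (0.0626) or siβ-catenin replicate 3 (0.109). CDKN1A, the gene of p21, had 981, 606 and 734 normalised counts in control libraries and 1281, 969 and 962 with siβ-catenin. The ranges overlapped, although the siβ-catenin library was the higher in each pair of the same number. In the unpaired fit CDKN1A was not called (0.47, SE 0.22, adjusted p = 0.235). With the replicate block its p passed (0.48, adjusted p = 0.000252) and its size did not, and it was called without GSK3i replicate 1 (0.67, adjusted p = 0.0161).

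Of 46 genes for homologous recombination and fork protection 5 fell and 0 rose, with a median of -0.33, and 11 fell with the replicate block. By an adjusted p below 0.05 alone, the block had 27 lower and 0 higher. The 5 were RAD54B (-0.65), the helicase gene BLM (-0.60), FANCD2 (-0.57) and FANCE (-0.52) of the Fanconi pathway and the checkpoint kinase gene CHEK1 (-0.51). All 5 lost the call without GSK3i replicate 2 (adjusted p 0.124 to 0.231) or siβ-catenin replicate 2 (0.0738 to 0.221) and in edgeR (0.0897 to 0.143). FANCE was lost without each of the 6 libraries in turn, and each of the other 4 without 4 or 5 of them. RAD54B shares 66% of its exonic bases with FSBP. Of 33 genes of the MYC network 4 fell and 0 rose, which were MYC, the ribosome biogenesis gene BOP1 (-0.64), the folate enzyme gene MTHFD2 (-0.58) and the chaperonin gene HSPD1 (-0.53). MYC held without any one library, and the other 3 were lost without GSK3i replicate 2 (adjusted p 0.0701 to 0.137) or siβ-catenin replicate 3 (0.0335 to 0.202; the lowest through its size) and in edgeR (0.0726 to 0.122). HSPD1 and BOP1 were also lost without GSK3i replicate 3 (0.0543 to 0.0877), and HSPD1 without GSK3i replicate 1 (0.0918) or siβ-catenin replicate 2 (0.169). All 47 cytosolic ribosomal protein genes had estimates below 0, from -0.36 to -0.12, where 52.5% of all genes tested did. DESeq2, edgeR and the replicate block called 0 of the 47 by size, although 32 had an adjusted p below 0.05 with the block. Many have near-identical pseudogene copies, which makes their counts uncertain.

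Of 23 TGF-beta and BMP targets 5 fell and 5 rose (edgeR called 2 and 0). TGFBI, a matrix adaptor gene, had 8011, 6490 and 6797 normalised counts in control libraries and 4404, 3480 and 2867 with siβ-catenin (-0.99, SE 0.19, adjusted p = 3.4e-05), without overlap. PMEPA1 (-1.04), TGFBR1 (-0.68), SMAD7 (-0.65) and BMP4 fell as well, while genes that rose included ID2, ID3 (0.62), ID4 (0.87) and ATOH8 (0.81). ID4, ATOH8, TGFBR1 and ID3 lost the call without GSK3i replicate 2 (adjusted p 0.0778 to 0.224), and the first 3 without GSK3i replicate 3 (0.095 to 0.135) or siβ-catenin replicate 3 (0.0833 to 0.188), and ID4 also without siβ-catenin replicate 2 (0.114). Of 26 YAP/TEAD genes 4 rose and 3 fell (edgeR called 2 and 1). The co-activator genes YAP1 (-0.72) and WWTR1 (-0.66) and AMOTL1 (-0.79) fell, and TEAD3 (0.87), RBMS3 (0.76) and the targets ANKRD1 (1.19) and CCN1 (0.67) rose. TEAD3 and AMOTL1 held without any one library, and ANKRD1, WWTR1, YAP1 and CCN1 were lost without GSK3i replicate 2 (adjusted p 0.0918 to 0.296) or siβ-catenin replicate 3 (0.0749 to 0.277). The first 3 were also lost without GSK3i replicate 3 (0.0594 to 0.109), YAP1 without siβ-catenin replicate 1 (0.0565), and CCN1 and RBMS3 without siβ-catenin replicate 2 (0.0545 to 0.125).

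Of 29 AP-1 and immediate-early genes KLF4 (0.79) and DUSP1 (0.64) rose and KLF6 (-0.58) fell. KLF4 held without any one library, and DUSP1 and KLF6 were lost without GSK3i replicate 2 (adjusted p 0.0673 to 0.134) or siβ-catenin replicate 2 (0.0859 to 0.105), KLF6 also without GSK3i replicate 3 (0.102) or siβ-catenin replicate 1 (0.0605), and DUSP1 without siβ-catenin replicate 3 (0.0532). edgeR called 0 of the list (adjusted p of the 3 0.0513 to 0.0892). Of 24 NOTCH genes the ligand genes DLL1 (1.27) and JAG2 (0.52) rose, and RBPJ (-0.55), NRARP (-1.36) and HES7 (-0.85), the nuclear factor, a feedback inhibitor and a target, fell. All 5 were lost without GSK3i replicate 2 (adjusted p 0.0615 to 0.401) and in edgeR (0.0772 to 0.121), which called 0 and 0 of the list, while 6 rose and 4 fell with the replicate block. Some were also lost without GSK3i replicate 3 (0.0877 to 0.194), siβ-catenin replicate 2 (0.171 to 0.26) or siβ-catenin replicate 3 (0.0915 to 0.333).

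Lysosome and autophagy genes leaned up: of 38 tested 4 rose and 0 fell, where 2.95% of all genes tested rose. The estimates of 34 lay above 0 (89.5%, beside 47.5% of all genes tested), and the median was 0.25 (edgeR called 1 and 0). The sialidase gene NEU1 had 5937, 4810 and 5081 normalised counts in control libraries and 10120, 9017 and 10070 with siβ-catenin (0.88, SE 0.14, adjusted p = 1.27e-07), without overlap, against 3957 ± 528 in untreated cells, and it held without any one library. TFEB (0.70) and MITF (0.76), factors of the lysosomal programme, and WIPI1 (0.67) rose and were lost in edgeR (adjusted p 0.0554 to 0.107) and without GSK3i replicate 2 (0.0908 to 0.259). MITF was lost without each of the 6 libraries in turn, WIPI1 also without siβ-catenin replicate 2 and TFEB also without siβ-catenin replicate 3. Of 31 ATF4 stress response genes the stress regulators NUPR1 (1.22) and DDIT3 (0.83) rose and STC2 (-1.07), the serine synthesis gene PSAT1 (-0.62) and MTHFD2 fell. NUPR1 held without any one library, but edgeR called 0 of the 5 (adjusted p 0.061 to 0.106). DDIT3, PSAT1 and MTHFD2 were lost without GSK3i replicate 2 (0.0701 to 0.133) or siβ-catenin replicate 3 (0.0335 to 0.163, the lowest through its size), PSAT1 and STC2 without siβ-catenin replicate 2 (0.0616 to 0.13), PSAT1 without GSK3i replicate 1 (0.067) and DDIT3 without GSK3i replicate 3 (0.0865). DDIT3 shares 39.6% of its exonic bases with MARS1 on the opposite strand.

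The remaining lists had few calls. Of 29 glycolysis and hypoxia genes ENO2, an enolase gene, rose alone (2047, 1664 and 1567 against 3102, 2867 and 3371 normalised counts; 0.82, SE 0.16, adjusted p = 3.12e-05) and held without any one library. Of 32 interferon-stimulated genes HERC5 (-0.90) and IFI44 (-0.63) fell, of 15 NF-kappaB genes CXCL2 (0.63) rose and BIRC3 and LIF fell, and of 22 FOXO-type genes ERBB3 (0.79) and FOXO6 (1.31) rose and FOXO3 (-0.73) fell. Of these, HERC5 alone held without any one library. Among 32 cholesterol and fatty acid genes and 13 mtDNA-encoded mRNAs DESeq2 and edgeR called 0, and with the replicate block ACACB was called higher (0.57, adjusted p = 0.00605), as it was without siβ-catenin replicate 1 (0.69, adjusted p = 0.0486).

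The response was last compared with that of BRCA2-proficient cells under GSK3i. Of 17544 genes tested for a difference of the siβ-catenin effect, 0 had a higher (0.0%) and 1 a lower effect (0.0057%) in BRCA2-deficient cells. It was ENSG00000225871, a gene without a symbol and with a mean of 10.5 normalised counts. edgeR called 0 and 0, and an unadjusted p below 0.05 was found for 326 genes (324 in edgeR). Without the library labelled BRCA2-proficient GSK3i with siβ-catenin replicate 2, which goes against its label, 7 of 17408 genes had a higher (0.0402%) and 4 a lower effect (0.023%).

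The 4 were ENSG00000225871, GINS1, PRIM1 and RRM2. GINS1 had -0.81 in BRCA2-deficient cells and -0.0041 (SE 0.13) in BRCA2-proficient cells without that library, a difference of -0.79 (SE 0.18, adjusted p = 0.027). PRIM1 had -0.78 and -0.05 (SE 0.14) (difference -0.71, SE 0.17, adjusted p = 0.0392), and RRM2 -0.54 and 0.13 (SE 0.11) (difference -0.65, SE 0.14, adjusted p = 0.027). With all libraries the effects in BRCA2-proficient cells were -0.19, -0.02 and 0.03 in the same order, and the differences were not called.

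The 7 that were higher were named after their values were seen. SESN2, an inhibitor of mTORC1, had 0.20 in BRCA2-deficient and -1.25 (SE 0.23) in BRCA2-proficient cells without that library (difference 1.47, SE 0.33, adjusted p = 0.027). TRIB3, a pseudokinase gene, had 0.22 and -1.42 (SE 0.40), the mitochondrial enzyme gene PCK2 0.09 and -1.46 (SE 0.24), the amino acid transporter gene SLC1A4 0.00 and -1.07 (SE 0.17), and ADM2 0.43 and -1.27 (SE 0.29). FBLL1 and GABRG1 were the others. With all libraries the effects in BRCA2-proficient cells were smaller in size, at -1.01 for SESN2, -0.91 for TRIB3, -0.43 for PCK2, -0.79 for SLC1A4, -0.42 for ADM2, -0.22 for FBLL1 and -0.59 for GABRG1, and without the replicate block none of these differences was called. With all libraries and the replicate block, GABRG1 and VEGFA were higher and NCAPG and ENSG00000225871 lower, so of the 11 genes called without that library 2 were called there. AXIN2 fell in both states, by 3.10 in BRCA2-deficient cells and 3.06 in BRCA2-proficient cells without that library (an effect of -3.29 with it), with a difference that was not called.

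**Figure D5:**
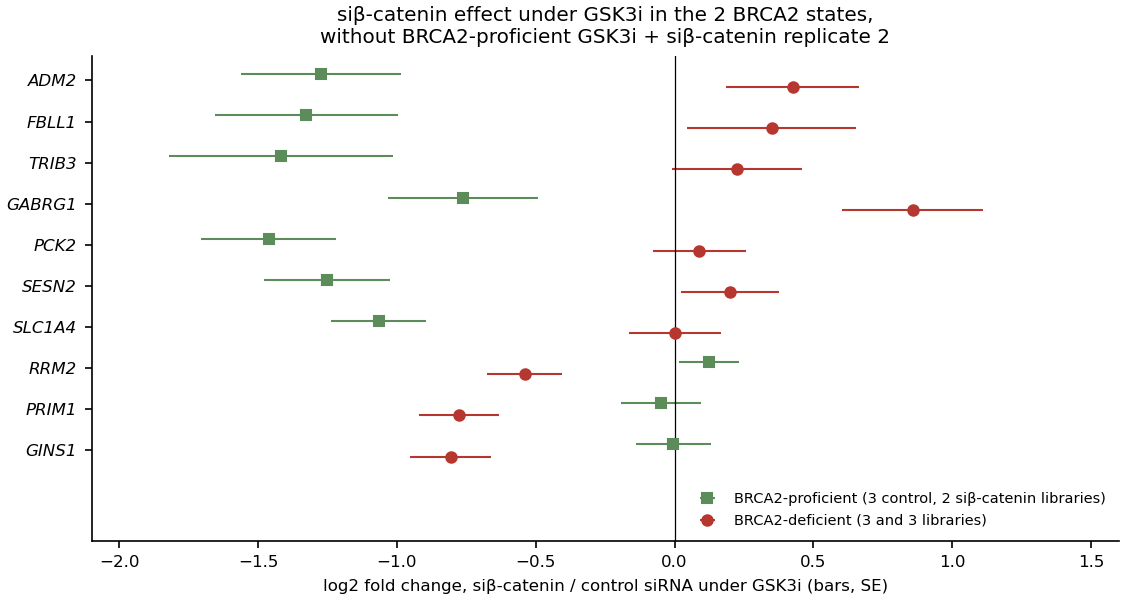
The siβ-catenin effect under GSK3i (log2 fold change with SE bars) in BRCA2-deficient and BRCA2-proficient cells, the latter without the library that goes against its label, for the 10 genes with a symbol whose difference was called in that fit. GINS1, PRIM1 and RRM2 lie between -0.81 and -0.54 in BRCA2-deficient cells and near 0 in BRCA2-proficient cells.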

How the data were processed

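Gene counts of poly(A) RNA sequencing were deposited as whole-number counts per Ensembl gene. Per the labels, the authors aligned reads with HISAT2 (2.0.4) to GRCh37, handled them with SAMtools (1.4), removed duplicates with Picard (1.9.2) and counted with featureCounts (1.5.0); the strand setting is not given in the sources used here. Removing duplicates can lower the most abundant genes. The labels describe the replicates as numbered samples, and the study describes 3 independent experiments.

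Here DESeq2 (1.42.0, R 4.3.3) was fitted to the 6 libraries, on genes unless more than 3 had fewer than 10 counts. Differences of effects were interaction terms on genes with at least 10 counts in 3 or more libraries. edgeR (4.0.16), the replicate block, other filters and size factors, a test against 0.5, 1 model over all groups and leaving out libraries were alternatives. The numbers were taken to pair the samples: deviations from group means correlated at 0.786, 0.487 and 0.506 over 14936 genes (Pearson's r across genes) for numbers 1, 2 and 3. Of unmatched numbers, control 2 with siβ-catenin 3 had 0.23 and control 3 with siβ-catenin 2 had 0.374. The others lay between -0.651 and -0.503, so numbers 2 and 3 were set apart less clearly than number 1. Models were tested on simulated data. Symbols came from GENCODE on GRCh37, promoters from RefSeq, matched exactly to GRCh37.

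Named genes were CTNNB1, BRCA2 and genes the study names; the 12 largest called changes each way with a mean of at least 100 and no overlap; the 6 most abundant called each way; up to 8 called members of each list (or the 2 of lowest adjusted p); and the 4 of lowest adjusted p each way for each difference. Other genes were named after their values were seen. Members and lists were chosen with earlier results of these data known. Some genes that these rules name are counted in the totals and not reported here by name.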

Additional observations from a re-analysis of the deposited data

Results flagged for a closer look

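The effect of siβ-catenin differed with and without GSK3i in BRCA2-deficient cells, by a test of the difference itself, in 25 named genes (effect with minus effect without GSK3i, log2, DESeq2 interaction). Among WNT targets the difference was -3.65 for AXIN2, -2.62 for LEF1, -2.13 for SP5, -1.74 for SOX4, -1.57 for TCF7, -1.35 for TRIB2, -1.26 for PDE4B and -1.25 for BMP4. Among other genes with a lower effect under GSK3i it was -2.02 for GJB2, -1.998 for NRARP, -1.69 for MIR503HG, -1.41 for BCL2L11, -1.21 for NSMF, -1.20 for FAS, -1.17 for PALD1, -0.80 for BOP1 and -0.75 for CDKN2B. It was higher under GSK3i for DIO2 (1.64), HTR1D (1.32), CRYM (1.32), LINC00707 (1.16), GPR162 (1.09), CXCL2 (1.03), DUSP1 (0.88) and TFPI (0.81).

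Leaving out 1 of the 12 libraries ended the call of BOP1 in 11 fits (adjusted p 0.0523 to 0.282), CDKN2B in 10 (0.0528 to 0.311), NRARP in 9 (0.0919 to 0.229), DUSP1 in 9 (0.05 to 0.279), CXCL2 in 9 (0.0943 to 0.315), PDE4B in 8 (0.079 to 0.197), TRIB2 in 7 (0.0574 to 0.126), GPR162 in 6 (0.0663 to 0.118), BMP4 in 5 (0.0552 to 0.113), FAS in 3 (0.0642 to 0.0922) and MIR503HG in 2 (0.0642 to 0.0783). GSK3i replicate 2 was among the libraries for each of these 11 genes. The other 14 kept their call in all 12 fits.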

How the results depend on the processing

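No named gene reversed under any alternative run. Genes called higher and lower (502 and 437) were 149 and 118 in edgeR, 31 and 42 in a test against a log2 fold change of 0.5, 707 and 634 with the replicate block, and 200 to 528 and 166 to 509 without 1 library. For the difference by GSK3i (27 and 61) the counts were 0 and 11 in edgeR, 117 and 218 with the replicate block, 0 and 6 against 0.5, and 10 to 39 and 37 to 79 without 1 library. For the difference by BRCA2 state (0 and 1) they were 2 and 2 with the replicate block, 0 lower in edgeR, with no filter, with a filter of 50 counts and against 0.5, and 0 to 7 higher and 0 to 4 lower without 1 library. The causes were not tested. With TMM size factors 541 and 395 genes were called in place of 502 and 437. Of 147 named genes 125 were called. The replicate block kept 125 of these and added CCNE1, VIM and ACACB, edgeR kept 52, and 47 held in every setting but the test against 0.5. Without GSK3i replicate 2, 62 were lost, the most of any 1 library. In the paired fit without replicate 2 of both groups, 23 were lost. With 3 libraries a group, changes near 0.5 on the log2 scale are the least certain. Leaving out replicate 1 or 3 of both groups was added after seeing the data.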
